A study of Mus musculus with 9 samples.

Results

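The genes described here are the chemokines and their receptors, measured in microglia from mice that model Alzheimer's disease and differ in human TREM2. Members were the genes whose symbol is Ccl, Cxcl, Ccr or Cxcr followed by a number, with or without a trailing letter, together with Xcl1, Xcr1, Cx3cl1, Cx3cr1 and Ccrl2. Each had a probe set annotated to that symbol alone, and the probe set with the highest mean stood for the gene. The rule found 52 members among 19938 genes with such a probe set. The Ccl21 genes (Ccl21a to Ccl21d) and Ccl27 genes (Ccl27a and Ccl27b), for which the annotation lists probe sets only under several symbols at once, were not analysed here.

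Expression came from 9 microarrays, 1 for each of 9 mice aged 8.5 months, and the cells were sorted from the brain as CD45+ CD11b+ microglia, the resident macrophages of that organ. The 5XFAD transgenes, mutant human genes that make amyloid plaques form early, were present in all 9, and mouse TREM2 was missing in all 9. TREM2 is a receptor through which microglia sense lipids. The group called KO expressed no human TREM2, the group called CV expressed its common variant, and the group called R47H expressed the R47H variant, known from genetics as a risk allele for Alzheimer's disease. In every genotype mouse 1 was female and mice 2 and 3 were male. The promoter behind the human gene is not given in the labels. The comparisons ask what either form of human TREM2 changes in microglia that face amyloid, and how R47H differs from the common variant.

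Chemokines are small secreted or membrane-tethered proteins that steer migrating cells, and they act through receptors that couple to inhibitory G proteins. The CC and CXC families are named for the spacing of their first cysteines. In the brain, neurons present the tethered ligand Cx3cl1 to its receptor Cx3cr1 on microglia, activated microglia secrete Ccl3 and Ccl4, and leukocytes that enter the tissue carry receptors such as Ccr2 and Cxcr2. Promoters of many chemokine genes answer NF-kB, AP-1 or interferon-activated factors.

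Values are deposited log2 values, so a difference of 1 is a 2-fold change. They lay between 1.31 and 13.9, and array medians between 5.28 and 5.35. A gene was tested where its mean over the 9 mice reached the median of all probe sets, 5.31, which kept 10795 genes and 31 of the 52 members. The members nearest that limit were Xcl1 at 5.25, Ccl11 at 5.24 and Ccl22 at 5.23 below it, and Cxcl11 at 5.33, Ccl17 at 5.36 and Ccr10 at 5.38 above it. Calls rest on a Benjamini-Hochberg adjusted p under 0.05 over all 10795 genes in limma, with terms for genotype and sex. Of the microglia markers 14 of 14 measured passed the limit. Markers of other cells passed too: 14 of 17 for neutrophils, 11 of 13 for border-associated macrophages, 10 of 13 for monocytes, 8 of 11 for oligodendrocytes and 7 of 13 for astrocytes. Fewer passed for T and NK cells (1 of 13) and neurons (0 of 10). Neutrophil markers varied most between mice. Their score, the mean deviation of 14 markers from their means over all mice, lay at -1.68, -1.28 and 1.45 in KO mice 1, 2 and 3, between -1.06 and -0.16 in R47H, and between 0.67 and 1.47 in CV. KO mouse 3 therefore stood with the CV mice on these markers. Oligodendrocyte markers, by the same measure over 8 genes, lay between -0.66 and 0.12 in KO, 0.55 and 0.92 in R47H, and -0.69 and -0.29 in CV. Exactly the same value on 2 or more arrays occurred in 10 tested members, Ccl3 and Ccrl2 among them, and in 13 untested ones, as it did in 52.5% of all tested and 77.9% of all untested genes. In bulk RNA, more cells of a type and more RNA per cell cannot be told apart.

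The promoters of 5 members are shown because the results below turn on these genes. Cxcr4 and Cxcl14 were higher with the common variant, and Ccl8 was higher with R47H than with the common variant. Cxcl9 and Cxcl10 are interferon-inducible ligands that were each lowest in mouse 2 among the R47H mice, but ran in opposite order among the CV mice. Each sequence covers 250 bases before the RefSeq start and 50 from it, in GRCm38.p6. Cxcr4 lies at chr1:128592250-128592549 (minus strand), Cxcl14 at chr13:56296502-56296801 (minus), Ccl8 at chr11:82114935-82115234 (plus), Cxcl9 at chr5:92328030-92328329 (minus) and Cxcl10 at chr5:92348840-92349139 (minus). Capitals mark matches to the motifs listed after the sequences.
Cxcr4: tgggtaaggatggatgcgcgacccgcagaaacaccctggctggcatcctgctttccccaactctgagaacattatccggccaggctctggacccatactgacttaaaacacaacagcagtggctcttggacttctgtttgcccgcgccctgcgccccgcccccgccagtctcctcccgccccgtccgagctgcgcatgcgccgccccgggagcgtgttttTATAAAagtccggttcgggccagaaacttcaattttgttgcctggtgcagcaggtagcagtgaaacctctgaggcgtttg
Cxcl14: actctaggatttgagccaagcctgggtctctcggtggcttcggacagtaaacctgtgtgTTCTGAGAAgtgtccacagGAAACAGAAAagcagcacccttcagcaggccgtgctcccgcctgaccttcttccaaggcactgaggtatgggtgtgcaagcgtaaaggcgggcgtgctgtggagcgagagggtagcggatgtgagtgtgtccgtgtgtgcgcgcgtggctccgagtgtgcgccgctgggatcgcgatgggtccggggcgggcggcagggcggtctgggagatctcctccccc
Ccl8: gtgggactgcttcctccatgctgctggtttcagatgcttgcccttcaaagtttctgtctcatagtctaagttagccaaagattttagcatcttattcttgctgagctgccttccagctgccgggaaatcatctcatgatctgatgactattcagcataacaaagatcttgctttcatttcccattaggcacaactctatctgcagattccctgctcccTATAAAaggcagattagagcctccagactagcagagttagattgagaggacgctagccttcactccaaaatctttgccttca
Cxcl9: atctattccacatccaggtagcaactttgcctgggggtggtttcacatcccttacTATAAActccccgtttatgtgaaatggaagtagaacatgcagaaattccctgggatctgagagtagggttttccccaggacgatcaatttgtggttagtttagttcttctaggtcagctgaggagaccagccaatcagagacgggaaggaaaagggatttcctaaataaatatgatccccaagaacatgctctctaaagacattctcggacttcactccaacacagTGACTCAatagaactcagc
Cxcl10: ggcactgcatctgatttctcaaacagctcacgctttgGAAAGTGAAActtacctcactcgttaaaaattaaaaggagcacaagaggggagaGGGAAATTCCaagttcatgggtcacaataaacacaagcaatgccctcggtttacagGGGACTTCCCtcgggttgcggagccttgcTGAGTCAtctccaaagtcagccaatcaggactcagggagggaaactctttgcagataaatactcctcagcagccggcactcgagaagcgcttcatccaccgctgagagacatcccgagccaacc

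The motifs searched were TATAAA on the gene's strand and, on both strands, an NF-kB site, the AP-1 site TGANTCA, the interferon-stimulated response element (GAAA, any 2 bases, GAAA), the gamma-activated site TTCNNNGAA and the E-box CACGTG. Cxcr4 had a TATA box 30 bases before its start, and Ccl8 had one 32 bases before. Cxcl14 held a gamma-activated match 191 bases before the start and an interferon-response match 172 bases before. Cxcl10 held 2 NF-kB matches, 159 and 103 bases before its start, an interferon-response match 213 bases before and an AP-1 match 74 bases before. Cxcl9 had a TATAAA match 195 bases before its start and an AP-1 match 32 bases after it. Promoters were listed for 21 of the 31 tested members, 23 promoters in all. An NF-kB match was present in 5 of these 23 (Ccl9, Ccrl2, Cxcl1, Cxcl2 and Cxcl10), or 21.7%, against 4.51% of 32851 promoters of the same length. TATAAA was present in 7, or 30.4%, against 8.32%, and the interferon-response element in 3, or 13%, against 3.44%. The gamma-activated site was present in 2 of the 23 (8.7%), against 8.3% of all promoters. An AP-1 match was found in 3 (13% against 7.81% of all) and CACGTG in 0 (against 7.15%). These matches describe the letters in the window and were not tested against the expression values.

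With the common variant, 2 of the 31 tested members were higher than in KO and 0 were lower. They were Cxcr4, the receptor for the homing chemokine Cxcl12, and Cxcl14, a tissue-resident chemokine of epithelia and brain. Over all tested genes 1.21% were called in this comparison, 0.954% as higher and 0.259% as lower. In the F-test of any genotype difference 3 members passed, Cxcr4 (limma adjusted p = 0.0110), Cxcl14 (0.0144) and Ccl8 (0.0416), against 1.32% of all tested genes. All 3 lost this F-test call when CV mouse 1, 2 or 3 was left out, where 35, 49 and 35 genes remained called instead of 142, and Cxcr4 alone passed without KO mouse 1. Ccl8 also lost it without R47H mouse 1, 2 or 3. With all mice, 2 members passed the F-test without the sex term, without a filter, or with the limit at the 25th percentile. All called genes then numbered 85, 96 and 110. With the neutrophil score 0 members passed, and 35 genes were called.

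Cxcr4 (probe set 10357472) read 9.58, 8.92 and 9.47 in KO mice 1, 2 and 3, 9.90, 9.95 and 9.66 in R47H, and 10.67, 10.59 and 10.62 in CV. None of the 3 groups overlapped with another, and R47H lay between KO and CV. The KO mean was 9.32 ± 0.36, the R47H mean 9.84 ± 0.16 and the CV mean 10.63 ± 0.04 (log2, SD, n = 3). CV was 2.47-fold above KO, a log2 difference of 1.30 ± 0.15 (SE, limma adjusted p = 0.00461), with all 3 CV mice above all 3 KO mice. R47H minus KO was 0.51 ± 0.15, which did not pass (limma adjusted p = 0.501, unadjusted p = 0.00738). R47H minus CV was -0.79 ± 0.15 and missed the threshold narrowly (limma adjusted p = 0.0563). That last difference passed in a fit of the 2 genotypes alone (adjusted p = 0.0262), with quantile normalization (0.0498), with limma's trend and robust options (0.0417), and without KO mouse 2 (0.0101) or KO mouse 3 (0.0434). Under the other 14 of 19 alternatives it did not pass, with limma adjusted p up to 0.729. Over all 19 the difference ran from -0.89 to -0.58. Cxcl12, its ligand, was not tested because its mean of 4.61 lay below the limit.

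Cxcl14 (10409579) read 6.58, 5.73 and 6.30 in KO, 7.0, 7.0 and 6.51 in R47H, and 8.0, 7.61 and 7.33 in CV, mice 1 to 3 in that order. The CV mice stood above both other groups, while R47H mouse 3 lay within the KO range. The means were 6.20 ± 0.43, 6.84 ± 0.28 and 7.65 ± 0.34 (n = 3 each). CV was 2.72-fold above KO, by 1.44 ± 0.18 (limma adjusted p = 0.00617), again with all 3 CV mice above all 3 KO mice. The difference of R47H from KO was 0.63 ± 0.18 (adjusted p = 0.451) and from CV -0.81 ± 0.18 (adjusted p = 0.106), and neither passed in limma.

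**Figure D1:**
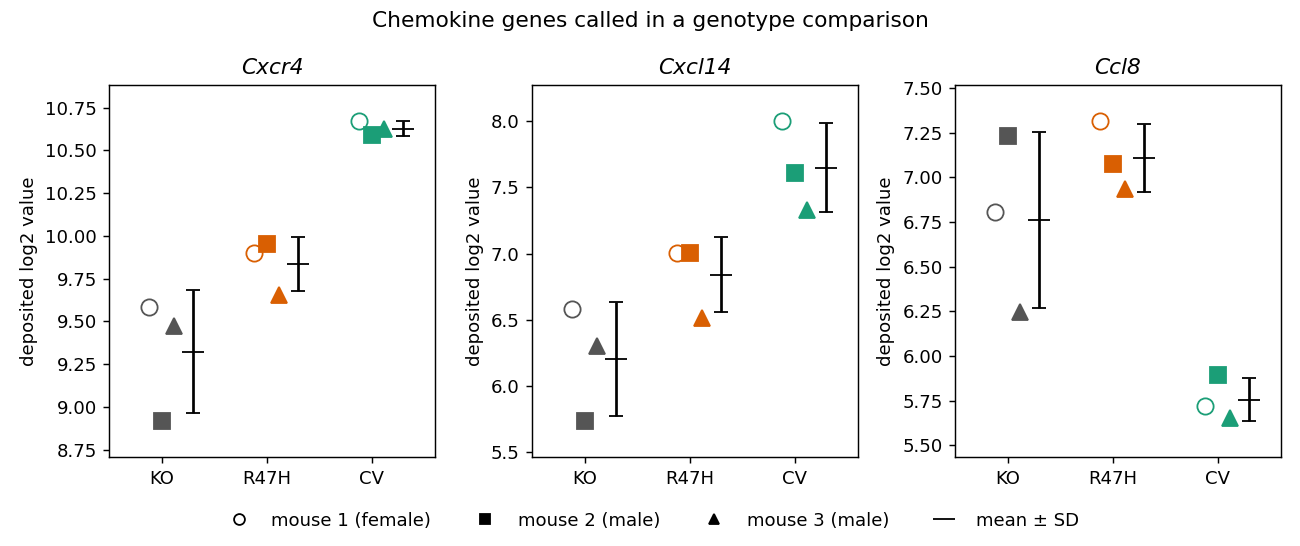
Deposited log2 values of Cxcr4, Cxcl14 and Ccl8 in each of the 9 mice by genotype, with mean ± SD (n = 3) at the right of each group; the vertical axes do not start at 0. Cxcr4 separates the 3 groups in the order KO, R47H, CV, Cxcl14 is highest in CV, and Ccl8 is lowest in CV at 5.65 to 5.89.

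Neutrophil markers differed in the same direction, with 14 of 14 tested positive in CV minus KO (median 1.77) and 0 called in limma. Both the Cxcr4 and the Cxcl14 calls held when any 1 of the 9 mice was left out. Once the neutrophil score entered the model, the Cxcr4 difference was 1.11 ± 0.19 (SE, limma adjusted p = 0.0843) and that of Cxcl14 1.23 ± 0.23 (adjusted p = 0.112). Both calls were lost, while all called genes went from 131 to 23. Without the score the differences were 1.30 ± 0.15 and 1.44 ± 0.18, so with it both differences were smaller and both SE larger. KO mouse 3, whose neutrophil score of 1.45 matched that of CV mice, read 9.47 for Cxcr4 and 6.30 for Cxcl14, inside the range of the other KO mice for both genes; the part of neutrophils in the Cxcr4 and Cxcl14 differences was not tested. Astrocyte markers (7 tested) were lower in CV than in KO for 7 of 7, with scores of -0.40 to -0.25 in CV, -0.26 to 0.05 in KO and 0.29 to 0.53 in R47H. The part of astrocytes was not tested either.

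The other members followed with smaller differences that did not pass. Cxcl16, a membrane-tethered chemokine that is also a scavenger receptor, read 9.98, 9.62 and 9.72 in KO, 10.22, 9.80 and 10.25 in R47H, and 10.39, 10.15 and 10.51 in CV. KO and CV did not overlap. The CV minus KO difference was 0.58 ± 0.13 (limma adjusted p = 0.101), and R47H minus KO was 0.32 ± 0.13 (adjusted p = 0.863). Cxcl2, a ligand of Cxcr2 that recruits neutrophils, read 9.59, 9.73 and 10.19 in KO and 10.22, 10.42 and 10.38 in CV, a difference of 0.50 ± 0.16 (adjusted p = 0.243). In R47H it read 9.51, 10.41 and 10.46, so mouse 1 lay at the KO level and mice 2 and 3 at the CV level. Ccl2, the main monocyte attractant, read 9.37, 9.40 and 10.03 in KO, 9.46, 9.84 and 9.86 in R47H, and 9.77, 10.13 and 10.21 in CV. KO mouse 3 lay above CV mouse 1, and the difference of 0.44 ± 0.14 had an adjusted p of 0.223 in limma.

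Leaving out KO mouse 3 brought the count of called members in CV minus KO from 2 to 4, and that of all called genes from 131 to 172. The added genes were Ccl2, higher by 0.60 (limma adjusted p = 0.0350), and Ccl8, at -1.27 (adjusted p = 0.0109). The neutrophil score of KO mouse 3 was 1.45, against -1.68 and -1.28 in KO mice 1 and 2 and 0.67 to 1.47 in CV. With that mouse left out, genotype and neutrophil score cannot be told apart in CV minus KO. With all mice, 22 of the 31 tested members had a positive CV minus KO difference and 9 a negative one, at a median of 0.14 (0.073 without KO mouse 2), while 45% of all tested genes were positive, at a median of -0.02. An unadjusted p under 0.05 was reached by 7 (22.6%), against 13.2% of all tested genes. Groups did not overlap for 7 members above KO (Cxcr4, Cxcl14, Cxcl13, Cxcl16, Cxcl2, Ccrl2 and Ccl19) and 3 below (Ccl8, Cxcl17 and Cx3cr1), 10 of 31. Over all tested genes this held for 14%, 5.9% above and 8.05% below. Once the neutrophil score entered the model, the members' median was -0.0071.

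By family, 7 of 9 tested CXC ligands were positive in CV minus KO (median 0.36), 10 of 12 CC ligands (median 0.11) and 4 of 9 receptors (median -0.0072). Ccl3 read 12.97 to 13.20 in KO, 13.09 in all 3 R47H mice and 13.09 to 13.20 in CV. Ccl4, which shares receptors with Ccl3, read 12.75 to 13.04, 12.81 to 12.91 and 12.90 to 12.97. CV minus KO was 0.05 ± 0.08 for Ccl3 and 0.06 ± 0.08 for Ccl4, both within the spread between KO mice (SD 0.12 and 0.15). Both probe sets lay above 99.9% of all probe sets, and whether a difference can still be resolved at that brightness was not tested. Ccl6, another ligand of Ccr1, read 9.87, 9.46 and 9.97 in KO, 9.89, 10.12 and 9.88 in R47H, and 10.28, 10.26 and 9.87 in CV. Ccl9, which also binds Ccr1, read 9.18, 8.88 and 9.38, then 9.03, 9.27 and 9.34, then 9.48, 9.27 and 9.27 in the same order of groups. Both sets overlapped between KO and CV. Ccl12, a ligand of Ccr2, read 11.54, 11.43 and 11.37 in KO, 11.51, 11.41 and 12.09 in R47H, and 11.53, 11.63 and 12.04 in CV, so mouse 3 was the highest in both R47H and CV. CV minus KO for Ccl6 stood at 0.37 ± 0.16 (limma adjusted p = 0.354), Ccl7 at 0.32 ± 0.16 (0.448), Ccl12 at 0.29 ± 0.18 (0.558) and Ccl9 at 0.19 ± 0.14 (0.615). Ccl24, a ligand of the eosinophil receptor Ccr3, read 7.20, 7.31 and 7.46 in KO, 7.0, 7.40 and 7.40 in R47H, and 7.11, 7.48 and 7.47 in CV, and CV minus KO was 0.03 ± 0.07. In each group its lowest value was that of mouse 1, the female.

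**Figure D2:**
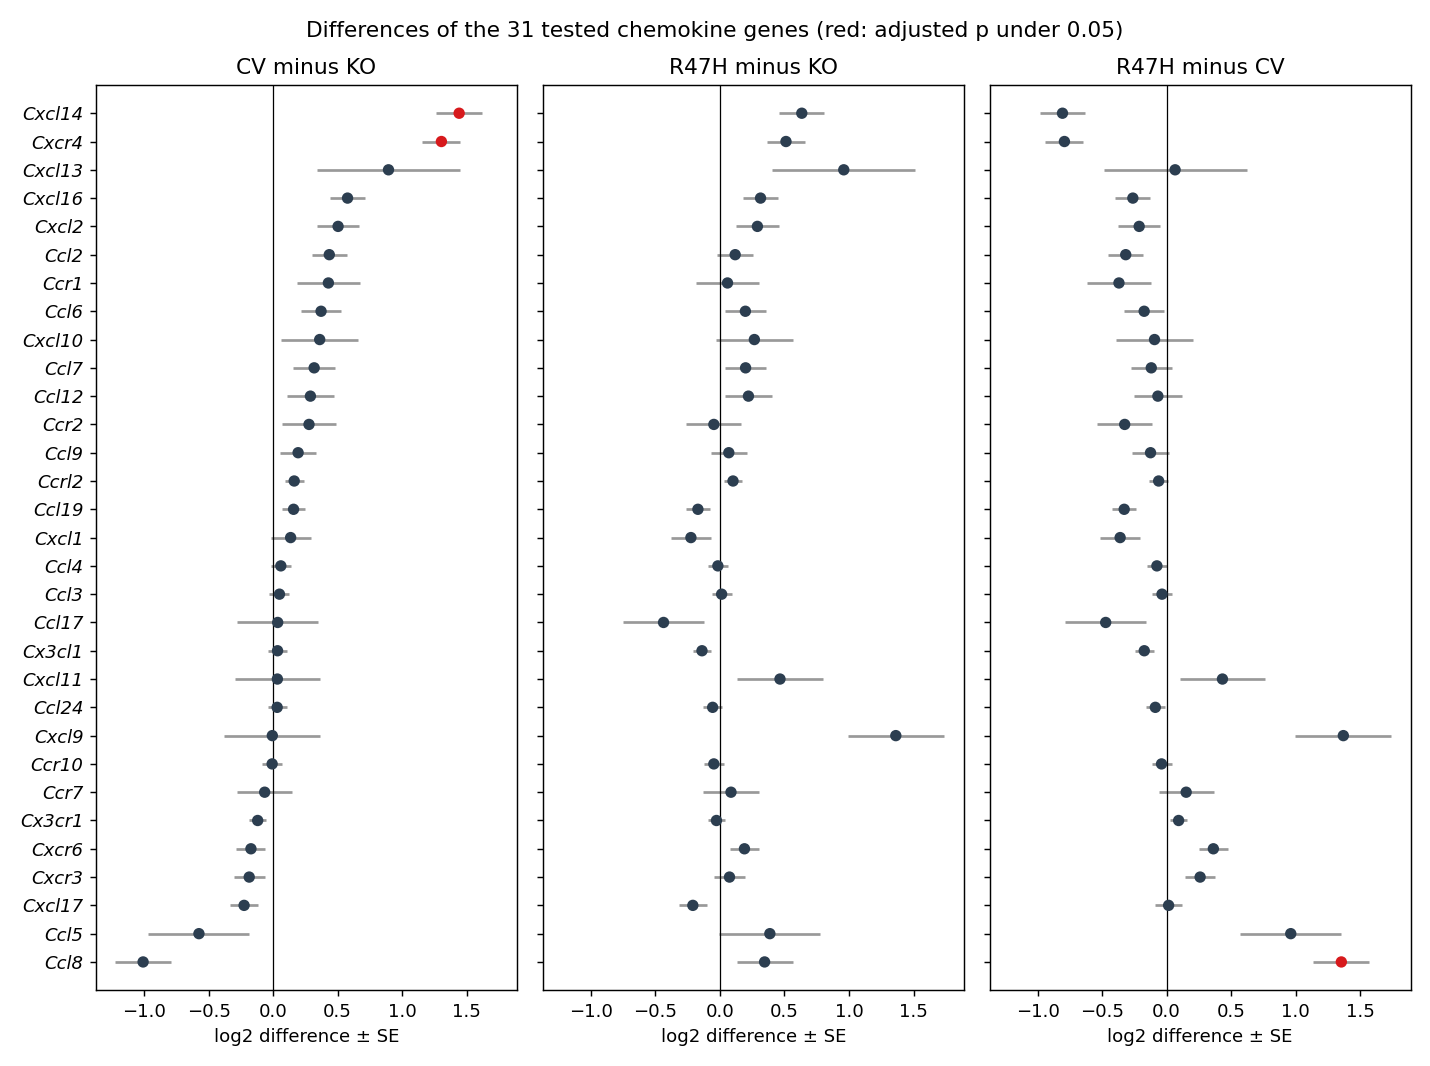
Log2 differences ± SE from limma for the 31 tested members in the 3 comparisons, ordered by CV minus KO; red points have an adjusted p under 0.05. Only Cxcl14 and Cxcr4 are called in CV minus KO and only Ccl8 in R47H minus CV, while R47H minus KO has none.

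Ccl8, a CC ligand that attracts monocytes and other leukocytes, ran the other way. It read 6.81, 7.23 and 6.25 in KO, 7.32, 7.07 and 6.94 in R47H, and 5.72, 5.89 and 5.65 in CV (probe set 10379535). The 3 CV mice were the lowest of the 9, and R47H overlapped with KO. Means were 6.76 ± 0.49 in KO, 7.11 ± 0.19 in R47H and 5.76 ± 0.12 in CV (n = 3). R47H was 2.55-fold above CV, by 1.35 ± 0.22 (limma adjusted p = 0.0346), with all 3 R47H mice above all 3 CV mice. This was the only member called in R47H minus CV, where 0.797% of all tested genes were called, 0.38% as higher. CV minus KO was -1.01 ± 0.22 and did not pass (adjusted p = 0.0755), and R47H minus KO was 0.35 ± 0.22 (adjusted p = 0.933).

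The Ccl8 call was lost under 10 of 19 alternatives, with differences of 0.82 to 1.45 over all of them. It did not pass without KO mouse 1 (limma adjusted p = 0.0637), without R47H mouse 1, 2 or 3 (0.177, 0.113 and 0.114), or without CV mouse 1, 2 or 3 (0.186, 0.0934 and 0.163). It also did not pass with every gene tested (0.0665), with the limit at the 25th percentile (0.0523), or with the neutrophil score (difference 0.82, adjusted p = 0.420). Markers of border-associated macrophages, which sit at the edges of the brain and also enter a CD45+ CD11b+ gate, were higher in R47H than in CV for 9 of 11 tested, 1 of them (Cd163) called. In CV minus KO 3 of the 11 were positive, and 1 was called as higher in CV. The score of these markers lay at 0.11 to 0.15 in R47H, -0.17 to -0.03 in CV and -0.12 to 0.07 in KO. Cd163, a haemoglobin scavenger receptor, read 6.78, 6.64 and 6.64 in R47H and 6.21, 6.22 and 5.96 in CV (0.56 ± 0.08, limma adjusted p = 0.0235). It read 6.49 in all 3 KO mice, a value repeated exactly. The part of these macrophages in the Ccl8 difference was not tested.

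Ccl8 is the fifth of 6 chemokine genes that follow each other without another protein-coding gene between them in RefSeq: Ccl2, Ccl7, Ccl11, Ccl12, Ccl8 and Ccl1. Its tested neighbours did not share its pattern of low CV values. In R47H minus CV the tested ones stood at -0.32 ± 0.14 (Ccl2), -0.12 ± 0.16 (Ccl7) and -0.07 ± 0.18 (Ccl12), and Ccl11 and Ccl1 were below the limit. A second run holds Ccl5, Ccl9, Ccl6, Ccl3 and Ccl4, of which Ccl5 had the widest spread.

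R47H against KO gave 0 called members in limma, where 0.0834% of all tested genes were called. At an unadjusted p under 0.05 there were 4 (12.9%, against 5.68% of all tested genes, 3.53% as higher): Cxcl9, Cxcl14, Cxcr4 and Cxcl16, all 4 higher in R47H. The adjusted p over the 31 members ran from 0.451 upward. Groups did not overlap for 3, Cxcl9, Cxcr4 and Cxcr6, each higher in R47H, or 9.68%, against 7.11% of all tested genes (3.84% as higher). The median member difference was 0.10 (0.056 and 0.20 when KO mouse 2 or 3 was left out, and 0.019 without R47H mouse 3), with 21 positive and 10 negative, and 49.6% of all tested genes were positive. Oligodendrocyte markers were higher in R47H than in KO for 8 of 8 tested, with 1 called, and their part in these differences was not tested.

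Cxcl9, an interferon-gamma-induced ligand of the T cell receptor Cxcr3, read 6.89, 5.71 and 6.99 in KO, 8.15, 7.37 and 8.15 in R47H, and 6.52, 7.04 and 6.0 in CV. The 3 R47H mice were the highest of the 9. The difference was 1.36 ± 0.37 against KO (limma adjusted p = 0.451) and 1.37 ± 0.37 against CV (adjusted p = 0.187), and neither passed. Cxcr6, the receptor for Cxcl16, read 5.81, 5.56 and 5.43 in R47H, at most 5.42 in KO and at most 5.42 in CV (R47H minus CV 0.36 ± 0.11, adjusted p = 0.249). That 5.42 was repeated exactly in KO mice 1 and 2 and CV mouse 2, and R47H mouse 3 lay barely above it. Cxcr6 is carried by tissue T cells, whose markers were near the low end of the arrays, with 1 of 13 measured above the limit.

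Several inducible ligands split the R47H group. Ccl5, which attracts T cells and monocytes, read 10.19 in R47H mouse 1, 8.53 in mouse 2 and 10.26 in mouse 3, against 9.71, 8.87 and 9.23 in KO and 8.60, 8.90 and 8.60 in CV. R47H mice 1 and 3 were the highest and R47H mouse 2 the lowest of the 9. Cxcl13, the B cell attractant, read 8.28, 5.93 and 8.52 in R47H, 7.32, 5.93 and 6.61 in KO, and 7.60, 7.42 and 7.52 in CV. Its CV values lay within 0.2 of each other and above all 3 KO values, by 0.89 ± 0.55 on average (limma adjusted p = 0.545).

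Cxcl10, induced by type I and II interferon, read 10.70, 9.80 and 11.11 in R47H, 10.54, 10.08 and 10.18 in KO, and 10.67, 10.27 and 10.95 in CV. Cxcl11, another ligand of Cxcr3, reached 6.53 in R47H mouse 3 and lay between 4.96 and 5.41 in the other 8 mice. Irf7, an interferon-induced transcription factor chosen for display after its values were seen, read 7.49, 6.60 and 8.12 in R47H, 7.35, 6.75 and 7.02 in KO, and 6.78, 6.68 and 6.94 in CV. R47H mouse 2 was thus the lowest of the 9 for Ccl5, Cxcl10, Cxcl11 and Irf7. Low values of mouse 2 were not confined to R47H. KO mouse 2 was the lowest KO mouse for Cxcl9, Cxcl13, Ccl5, Cxcl10 and Irf7, but the highest for Cxcl11. CV mouse 2 was the lowest CV mouse for Cxcl13, Cxcl10, Cxcl11 and Irf7, but the highest for Cxcl9 and Ccl5. Without R47H mouse 2, Ccl5 was called in R47H minus CV (1.5, limma adjusted p = 0.0446), against 0.96 ± 0.39 (adjusted p = 0.370) with all mice.

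**Figure D3:**
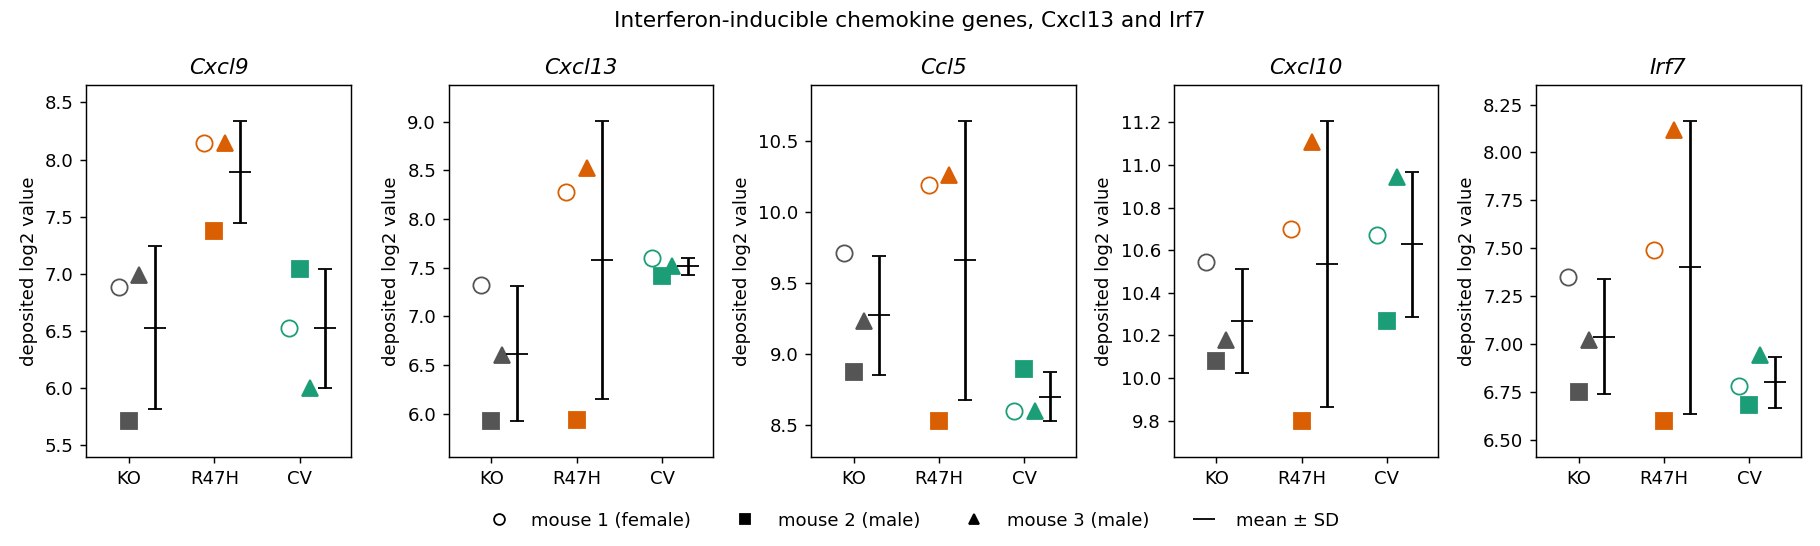
Deposited log2 values of Cxcl9, Cxcl13, Ccl5, Cxcl10 and the interferon regulator Irf7 in each mouse by genotype, with mean ± SD (n = 3); axes do not start at 0. R47H mouse 2 is low beside R47H mice 1 and 3 in all 5 panels, for example 8.53 against 10.19 and 10.26 for Ccl5. KO mouse 2 is the lowest KO mouse in all 5 panels. CV mouse 2 is the lowest CV mouse for Cxcl13, Cxcl10 and Irf7 and the highest for Cxcl9 and Ccl5.

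In R47H minus CV as a whole, 10 of 31 tested members were positive and 21 negative (median -0.09, against 0.01 over all tested genes, of which 53.4% were positive). The median was -0.050 without R47H mouse 1, -0.19 without R47H mouse 3 and -0.055 without CV mouse 1. Oligodendrocyte markers were higher in R47H than in CV for 8 of 8 tested, 5 of them called (median 1.18), and their part in the members' differences was not tested. Groups did not overlap for 4 members above CV (Ccl8, Cxcl9, Cxcr6 and Cx3cr1) and 3 below (Cxcr4, Cxcl14 and Ccl19), 22.6%, against 14.9% of all tested genes (8.74% above and 6.17% below). An unadjusted p under 0.05 was reached by 10 members (32.3%), against 12.4% of all tested genes. Ccl19, a ligand of Ccr7, read 5.55, 5.19 and 5.40 in R47H and 5.67, 5.78 and 5.67 in CV, but 5.55 in all 3 KO mice and in 1 R47H mouse, a value repeated exactly. Its difference of -0.33 ± 0.09 did not pass (limma adjusted p = 0.204). With the neutrophil score the median of the members in R47H minus CV turned to 0.071.

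The bright receptors Cx3cr1 and Ccrl2 differed little between the genotypes. Cx3cr1, the fractalkine receptor, read 12.33, 12.40 and 12.40 in KO, 12.32, 12.43 and 12.30 in R47H, and 12.28, 12.26 and 12.24 in CV. The CV mice lay just below the others, by -0.12 ± 0.07 against KO (limma adjusted p = 0.494). Of 14 microglia markers, 13 also had negative CV minus KO differences (median -0.20), with 0 called. Its ligand Cx3cl1, a neuronal gene, read 5.37, 5.43 and 5.49 in KO, 5.22, 5.27 and 5.38 in R47H, and 5.48, 5.38 and 5.53 in CV, with overlap between the groups. Its R47H minus KO difference was -0.14 ± 0.07 (adjusted p = 0.907). Ccrl2, an atypical receptor that binds chemerin and does not signal, read 10.96 to 11.05 in KO and 11.12 to 11.22 in CV without overlap, at 0.16 ± 0.07 (adjusted p = 0.383).

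Receptors of blood leukocytes were dim. Ccr2, the receptor of inflammatory monocytes, read 5.15, 5.59 and 5.95 in KO, 5.38 to 5.59 in R47H, and 5.63, 6.32 and 5.57 in CV, at 0.28 ± 0.21 for CV minus KO (limma adjusted p = 0.634). Ccr1, which binds Ccl3 and Ccl5, read 5.28, 5.47 and 6.08 in KO, 5.28 to 5.95 in R47H, and 5.78, 6.46 and 5.88 in CV (0.43 ± 0.25, adjusted p = 0.512). KO mouse 3 was the highest KO mouse for both. Of 10 tested monocyte markers 8 had a positive CV minus KO difference, with 1 called, and their score was 0.42 in KO mouse 3, -0.62 to -0.20 in the other KO and the R47H mice, and 0.48 to 0.85 in CV. Their part in the Ccr2 and Ccr1 values was not tested. Cxcr3, the receptor for Cxcl9 and Cxcl10, read 5.95, 5.95 and 6.11 in KO, 6.09, 6.19 and 5.95 in R47H, and 6.06, 5.58 and 5.81 in CV. Ccr7, which guides dendritic cells and T cells to lymph nodes, read 5.38, 5.60 and 5.84, then 6.19, 5.43 and 5.45, then 5.65, 5.74 and 5.23. The groups overlapped for both. Cxcr3, Ccr7 and Ccr10 (5.29 to 5.49 over the 9 mice) had adjusted p of at least 0.42 in limma in each comparison.

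Cxcr2, the neutrophil receptor for Cxcl1 and Cxcl2, had a mean of 5.09 and was not tested. It read 4.26, 3.98 and 6.18 in KO mice 1, 2 and 3, 4.50, 4.57 and 4.30 in R47H, and 6.05, 6.23 and 5.78 in CV. KO mouse 3 and the 3 CV mice were high and the other 5 mice low, the same 4 mice that had a neutrophil score above 0. Means were 4.81 ± 1.20 in KO, 4.45 ± 0.14 in R47H and 6.02 ± 0.22 in CV (n = 3). When every gene was tested, CV minus KO was 1.21 (limma adjusted p = 0.480) and R47H minus CV was -1.57 (adjusted p = 0.348). Cxcr1, its neighbour in the genome, stayed between 4.44 and 4.66 in all 9 mice.

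**Figure D4:**
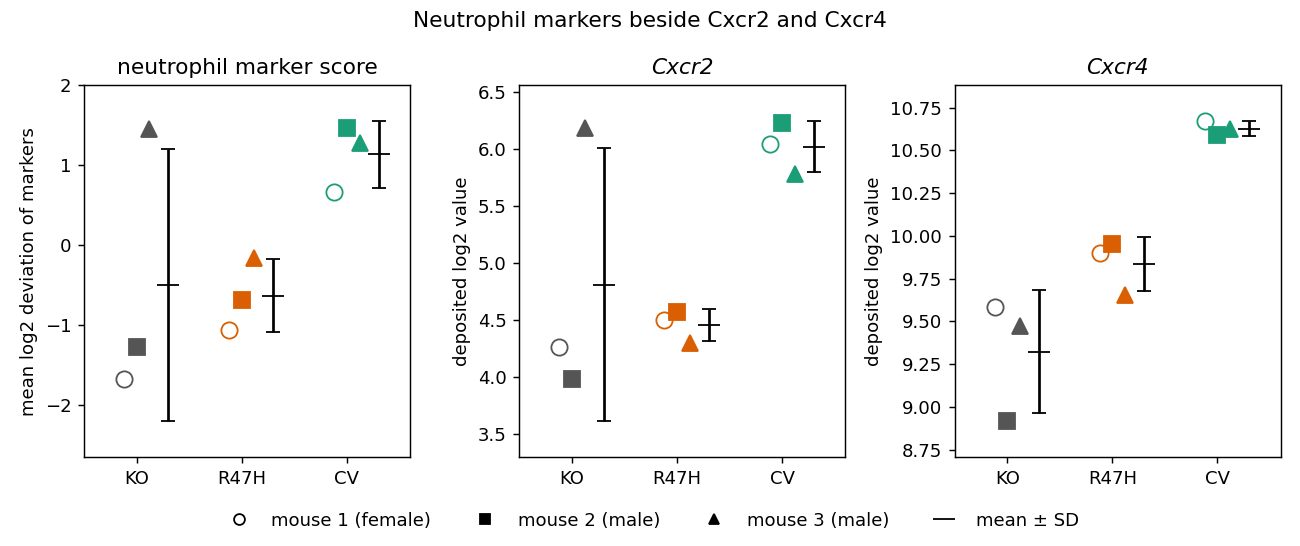
The neutrophil marker score (mean log2 deviation of 14 markers) and the deposited log2 values of Cxcr2 and Cxcr4 in each mouse by genotype, with mean ± SD (n = 3); axes do not start at 0. KO mouse 3 is high with the CV mice for the score (1.45) and Cxcr2 (6.18) and within the other KO mice for Cxcr4 (9.47).

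Of the 21 members below the limit, 7 were CC ligands, 4 CXC ligands, 9 receptors and 1 Xcl1. Their means ran from 2.76 (Cxcl15) to 5.25 (Xcl1), and for 17 of them each pair of group means differed by less than 0.2. Xcr1, the receptor of cross-presenting dendritic cells, read 3.82, 4.16 and 4.19 in KO, 4.11, 4.10 and 3.81 in R47H, and 4.29, 4.10 and 4.10 in CV. Ccr6, a receptor of lymphocytes and dendritic cells, read 5.27, 5.44 and 5.48 in CV against 5.22, 5.27 and 4.89 in KO. The tested members not yet described were Cxcl1, Cxcl17 and Ccl17. Cxcl1, a neutrophil attractant next to Cxcl2, read 7.10 to 7.34 in KO, 6.80 to 7.38 in R47H and 7.25 to 7.49 in CV. Cxcl17, a mucosal chemokine, read 6.22, 6.19 and 6.14 in KO, 5.91, 6.18 and 5.84 in R47H, and 6.12, 5.83 and 5.93 in CV. KO and CV did not overlap, at -0.22 ± 0.11 (limma adjusted p = 0.422). Ccl17 ran from 4.85 to 6.17, with its highest value in KO mouse 3.

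**Figure D5:**
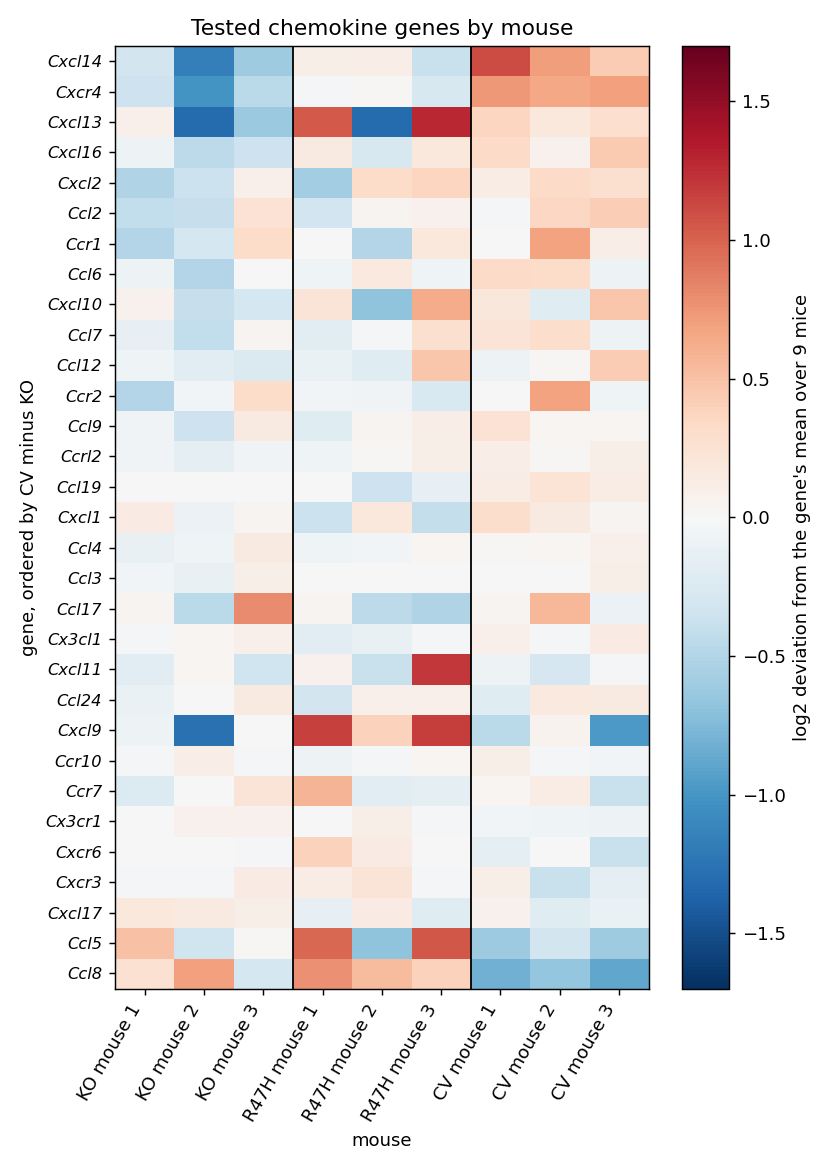
Each tested member's log2 deviation from its own mean over the 9 mice, one column per mouse, genes ordered by CV minus KO; red is above and blue below the mean. Cxcl14 and Cxcr4 are red in the 3 CV mice, Ccl8 is blue there, and Ccl5 and Cxcl13 are red in R47H mice 1 and 3 and blue in R47H mouse 2.

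Other genes of the pathway were taken from 4 lists. Of 25 tested genes of receptor signalling, 0 were called in CV minus KO, R47H minus KO or R47H minus CV, against 1.21%, 0.0834% and 0.797% of all genes, and 6 of 25 were positive in CV minus KO (median -0.07). Gnai2, the inhibitory G protein subunit these receptors use, stood at -0.22 ± 0.07 (limma adjusted p = 0.218) and Dock2, which moves leukocytes toward chemokines, at -0.14 ± 0.07 (0.394). Grk3, a kinase that desensitises receptors including Cxcr4, stood at 0.41 ± 0.13 (0.229). In R47H minus KO the smallest p were those of Grk5, Ptk2b and Pik3cg, at 0.11, -0.10 and -0.11, and in R47H minus CV those of Gnai2, Grk3 and Grk5, at 0.18, -0.32 and 0.14. There 19 of the 25 were positive (median 0.03).

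Among 11 tested genes that process or anchor chemokines, 1 was called in CV minus KO and 1 in R47H minus CV, and both were Mmp14. This membrane metalloproteinase read 7.37, 7.35 and 7.24 in KO, 7.49, 7.47 and 7.24 in R47H, and 8.02, 7.93 and 7.87 in CV. All CV mice lay above the other 6. CV minus KO was 0.62 ± 0.08 (limma adjusted p = 0.00693) and R47H minus CV was -0.54 ± 0.08 (adjusted p = 0.0235). Mmp9, which is among the neutrophil markers, stood at 0.95 ± 0.37 (0.320) and Mmp2 at -0.40 ± 0.15 (0.301) in CV minus KO. Hpse, which cleaves heparan sulfate, stood at 0.60 ± 0.23 in R47H minus KO (0.793), with Sdc3 at 0.23 and Mmp12 at 0.18. Against CV, R47H stood at 0.69 ± 0.23 for Hpse (0.278) and -1.30 ± 0.37 for Mmp9 (0.215).

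Of 18 tested NF-kB and interferon regulators 0 were called in any of the 3 comparisons (limma), with 14 positive in CV minus KO (median 0.13). Nfkbiz stood at 0.26 ± 0.08 (adjusted p = 0.216), Relb at 0.33 ± 0.11 (0.247) and Nfkbie at 0.36 ± 0.12 (0.256). In R47H minus CV 14 of the 18 were negative, among them Nfkbie at -0.36 ± 0.12 (0.286), Relb at -0.30 ± 0.11 (0.313) and Rel at -0.32 ± 0.14 (0.382). In R47H minus KO, Nfkbib, Irf1 and Stat2 had the smallest p, at 0.13, 0.12 and 0.27. The remaining list, of chemokine ligands and receptors with other symbols, had 3 of 10 tested and 0 called. In CV minus KO, platelet factor 4 (Pf4) stood at -0.00091 (limma adjusted p = 0.998), Gpr35 at -0.06 (0.760) and the chemerin receptor Cmklr1 at -0.16 (0.655). In R47H minus KO they stood at 0.25, -0.14 and -0.02 in the same order, and in R47H minus CV at 0.25, -0.08 and 0.14.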

How the data were processed

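Microglia from 9 mice were profiled on 1 array each. The deposited table held log2 values, a scale read from their range, for 35556 probe sets. How probes were corrected, normalized and summarised is not stated in the labels or headers. Genes were named from the platform annotation: 21789 probe sets had 1 symbol, 1621 several and 12146 none, and only the first were used.

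Groups followed the sample titles. Fits used limma 3.58.1 (lmFit, eBayes; R 4.3.3) on all 9 arrays and 10795 genes, with genotype and sex as terms, 5 residual and 3.73 prior degrees of freedom, and two-sided Benjamini-Hochberg adjustment at 0.05. The model was tested on simulated data. With 3 mice against 3, an exact permutation test cannot go below p = 0.10, and array number limits the precision. The 3 comparisons share groups, so their values are not independent.

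The members and lists were chosen with earlier results of these data known. Members described by mouse were those called, the 6 with the smallest p in each comparison, and a list of microglial and leukocyte chemokine genes. Of each pathway list the called genes and up to 3 with the smallest p in each comparison were named. Cxcl13, Cxcl11, Ccr6, Irf7, Cd163 and others outside this rule were chosen after their values were seen. Alternatives changed the sex term, block, arrays, filter, probe sets, normalization, eBayes options or covariate, or left out 1 mouse. Promoters came from RefSeq's GRCm38.p6 and matched 38 of the 52 members. Cross-hybridisation between paralogs was not checked.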

Additional observations from a re-analysis of the deposited data

How the results depend on the processing

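Of 1437 recomputed differences of named members under 19 alternatives, 12 lost and 10 gained a call. A further 55 turned sign, 16 of them with the neutrophil score; 0 of the 55 were called on either side, and 10 moved by more than 1 SD within groups. Over single removals of a mouse, called members numbered 2 to 4 in CV minus KO, 0 in R47H minus KO, 0 to 2 in R47H minus CV and 0 to 3 in the F-test of any genotype difference, against 2, 0, 1 and 3 with all mice. All called genes then numbered 59 to 172, 0 to 7, 9 to 132 and 35 to 163 in the same order, against 131, 9, 86 and 142. The members' medians ran from 0.073 to 0.18, 0.019 to 0.20 and -0.19 to -0.050 in the 3 comparisons. With the neutrophil score as a covariate 0 members were called in CV minus KO, R47H minus CV or the F-test (limma), and the members' median was -0.0071 in CV minus KO and 0.071 in R47H minus CV. All called genes fell to 23, 9 and 35 there. R47H minus CV gave 0 called members without a filter or with the limit at the 25th percentile, where more genes enter the adjustment, and 2 (Ccl8 and Cxcr4) in the 2 genotypes alone, with quantile normalization, or with the trend and robust options. The cause was not tested.

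Mouse numbers repeat across genotypes, and deviations of same-numbered mice correlated at -0.04 to 0.36, with 5 of 9 mice correlating best with their own number, so the numbers were not taken as pairs. These deviations were from genotype means, with sex not removed. The pairs of mouse 1, the female, correlated at 0.32 to 0.36 and the other same-numbered pairs at -0.04 to 0.21. For mouse 1 a shared sex and a shared number cannot be told apart. With the mouse number as a replicate block, members called in CV minus KO numbered 4, the added ones being Ccl8 (adjusted p = 0.0273) and Cxcl16 (0.0288), while all called genes went from 131 to 136. Dim probe sets near or below the array median limit what can be said of Ccr2, Cxcr2 and the other leukocyte receptors.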
